A study of Mus musculus with 13 samples.

Results

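Crtac1, Cp, Zfp622, Trio and Igfbp5 are 5 of the 22442 genes counted by ribosome profiling (Ribo-seq) of mouse oocytes with and without the RNA acetyltransferase NAT10. They were chosen from measured values, because their footprint level in every Nat10-ZcKO library at the germinal vesicle (GV) stage was said to lie above that in every WT GV library. Levels are given as CPM, a gene's count scaled to the library's total. In the deposited counts 4 of the 5 genes met that rule, and Trio did not: its lowest Nat10-ZcKO GV library stood at 79.4 CPM and its highest WT GV library at 83.2 CPM. The rule therefore describes how the genes were picked, and the GV genotype difference is given below as values, with no test.

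The libraries came from 21-day-old female mice, with about 100 oocytes in each Ribo-seq library. Females primed with 5 IU PMSG gave GV oocytes 48 h later, and those given 5 IU PMSG and, 46 h later, 5 IU hCG gave metaphase II (MII) oocytes after 16 h. Nat10-ZcKO oocytes (Nat10 lox/-; Zp3-Cre) lost Nat10 through a Cre that acts in oocytes from the primary follicle on, whereas the WT controls are labelled only as wild type. The series' design text also mentions tamoxifen, which the study's methods tie to another Cre line, so whether these animals received it is unclear. There were 3 WT GV, 3 Nat10-ZcKO GV, 2 WT MII and 3 Nat10-ZcKO MII libraries. A pull-down with an antibody to N4-acetylcytidine (ac4C), and one with IgG, each used RNA of about 2000 WT GV oocytes. The study's methods give C57BL/6J as the background of all its mice.

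Fully grown GV oocytes rest in meiotic prophase, are nearly silent in transcription and live on stored mRNA. In such oocytes footprints largely report which stored messages are being translated. The study found the ratio of GV chromatin forms, active to silent in transcription, distorted in Nat10-ZcKO, so this need not hold there. The 5 genes belong to no common pathway. Crtac1 encodes an extracellular matrix protein that also antagonises the Nogo receptor, and Cp encodes ceruloplasmin, a secreted copper ferroxidase best known from liver. Zfp622 encodes a cytoplasmic factor of large ribosomal subunit maturation, Trio a large multidomain signalling protein, and Igfbp5 a secreted binding protein of insulin-like growth factors made by somatic cells of many tissues, the ovary included.

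On the mouse genome (GRCm38), Crtac1 lies on the minus strand at chr19:42283035-42431783, Cp on the plus strand at chr3:19957054-20009145 and Igfbp5 on the minus strand at chr1:72857932-72874884. Zfp622, on the plus strand at chr15:25984366-25998481, and Trio, on the minus strand at chr15:27730651-28025848, share a chromosome but are 1732 kb apart, with 5 protein-coding genes between them. Those 5 genes (March11, Fbxl7, Ank, Otulin and Otulinl) had 1, 0, 3, 15 and 0 footprints over the 6 GV libraries, too few to set against the rule. The genes differ widely in coding length, from 813 bases for Igfbp5 to 9538 bases for Trio. Cp overlaps Hps3 on the other strand. Crtac1 overlaps the annotated loci AC144792.1, on the other strand, and AC151978.1, a processed pseudogene on its own strand. Trio overlaps Gm9891, on the other strand, and Gm20555, on its own. No coding base of the 5 genes is shared with the coding sequence of another gene.

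The promoters were unlike one another. Windows of 300 bases, from 250 before to 50 after the RefSeq start (GRCm38.p6), are printed 5′ to 3′ on the gene's strand for 3 genes, chosen to show the range: Crtac1 is the GC-rich extreme, Cp the AT-rich extreme, and Zfp622 holds a direct repeat. Capitals mark matches on either strand to the TATA box letters TATAAA, to the CCAAT box, to the GC box letters GGGCGG, to the ETS core letters CGGAAG or to the E-box letters CAGCTG. The Crtac1 window is chr19:42431739-42432038, that of Cp chr3:19956804-19957103 and that of Zfp622 chr15:25984116-25984415.
Crtac1: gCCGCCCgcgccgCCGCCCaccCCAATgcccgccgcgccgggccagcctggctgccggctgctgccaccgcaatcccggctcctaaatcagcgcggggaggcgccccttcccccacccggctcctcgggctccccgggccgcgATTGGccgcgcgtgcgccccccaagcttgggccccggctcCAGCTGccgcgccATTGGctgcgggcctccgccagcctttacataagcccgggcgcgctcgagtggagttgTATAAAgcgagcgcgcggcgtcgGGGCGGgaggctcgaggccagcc
Cp: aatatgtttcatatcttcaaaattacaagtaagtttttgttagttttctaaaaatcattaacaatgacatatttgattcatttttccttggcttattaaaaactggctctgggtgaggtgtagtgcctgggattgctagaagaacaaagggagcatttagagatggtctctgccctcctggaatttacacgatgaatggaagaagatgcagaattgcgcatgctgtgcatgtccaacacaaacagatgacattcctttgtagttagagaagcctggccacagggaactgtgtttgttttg
Zfp622: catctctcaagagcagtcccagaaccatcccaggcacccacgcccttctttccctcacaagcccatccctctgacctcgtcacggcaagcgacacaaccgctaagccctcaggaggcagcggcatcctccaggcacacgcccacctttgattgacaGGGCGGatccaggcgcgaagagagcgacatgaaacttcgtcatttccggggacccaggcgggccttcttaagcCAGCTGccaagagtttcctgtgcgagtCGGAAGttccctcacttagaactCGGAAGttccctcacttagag
GC content was 76.7% for Crtac1, 66.7% for Trio, 58.7% for Zfp622, 56.3% for Igfbp5 and 38.3% for Cp, beside a median of 52.7% over 32851 windows. No motif was found in all 5. GGGCGG, present in 35.7% of all windows, occurred 3 times each in Crtac1 and Trio and once in Zfp622. CCAAT, in 37.4% of all windows, occurred 3 times and TATAAA, in 13.6%, once in the Crtac1 window alone. That TATAAA match began 5 bases past the start, not before it. CAGCTG, in 16.3% of all windows, occurred once each in Crtac1 and Zfp622. CGGAAG, in 16.9% of all windows, occurred 2 times, in Zfp622, within 2 copies of a 21-base run, tcggaagttccctcacttaga, that begin 6 and 29 bases past the start. An exact repeat of at least 20 bases was present in 1.32% of all windows. The Cp and Igfbp5 windows held none of these motifs.

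Depth differed between libraries and bears on every value. WT GV libraries held 96142 to 279464 footprints, Nat10-ZcKO GV libraries 42360, 51709 and 277124, and Nat10-ZcKO MII libraries 146726 to 187967. WT MII replicate 1 held 134843 footprints and WT MII replicate 2 only 4815, from 523 genes. Intervals below are exact Poisson 95% intervals, or exact intervals of a ratio of counts, and cover counting error only. They take footprints as independent, although amplified copies could not be told apart, so they may be too narrow. For the GV genotype difference they are no test, since the genes were chosen on those values. A count of 0 is drawn at the level of 3 counts, which is 31.2 CPM in WT GV replicate 3 and 623 CPM in WT MII replicate 2. The Poisson interval of such a count reaches 38.4 and 766 CPM in these libraries. Nat10 itself had 8, 11 and 3 footprints in WT GV and 4, 1 and 5 in Nat10-ZcKO GV, too few to check the deletion, which removes exons 4 and 5 only.

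Nat10-ZcKO GV replicates 1 and 2 stood apart from the other GV libraries in cell type markers. The 13 oocyte markers took 5.33% to 7.29% of footprints in WT GV and 10.7% in Nat10-ZcKO GV replicate 3, but 1.43% in replicate 2 and 0.0142% in replicate 1, where 10 of the 13 were at 0, Gdf9 among them. In replicate 1 the 16 adipocyte markers took 1.31%, against 0.0254% to 0.0286% in WT GV, and the 12 theca and stroma markers 0.881%, against 0.0956% to 0.222%. Replicate 1 also had the highest share of the 14 granulosa markers, 0.923% against 0.366% to 0.487% in WT GV, and of the 10 smooth muscle markers, 0.465% against 0.0697% to 0.101%. In replicate 2 the adipocyte markers took 0.280% and the other somatic lists at most 0.265%. Replicate 3 held 0.0180% of adipocyte, 0.157% of theca and stroma, 0.257% of granulosa and 0.0740% of smooth muscle markers. WT MII replicate 2 held 2 oocyte marker footprints, with 11 of the 13 markers at 0, against 1.12% to 1.42% of footprints in the other MII libraries. In such bulk libraries fewer cells of a type and less RNA per cell cannot be told apart, and the part of these cells in the levels of the 5 genes was not tested.

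**Figure D1:**
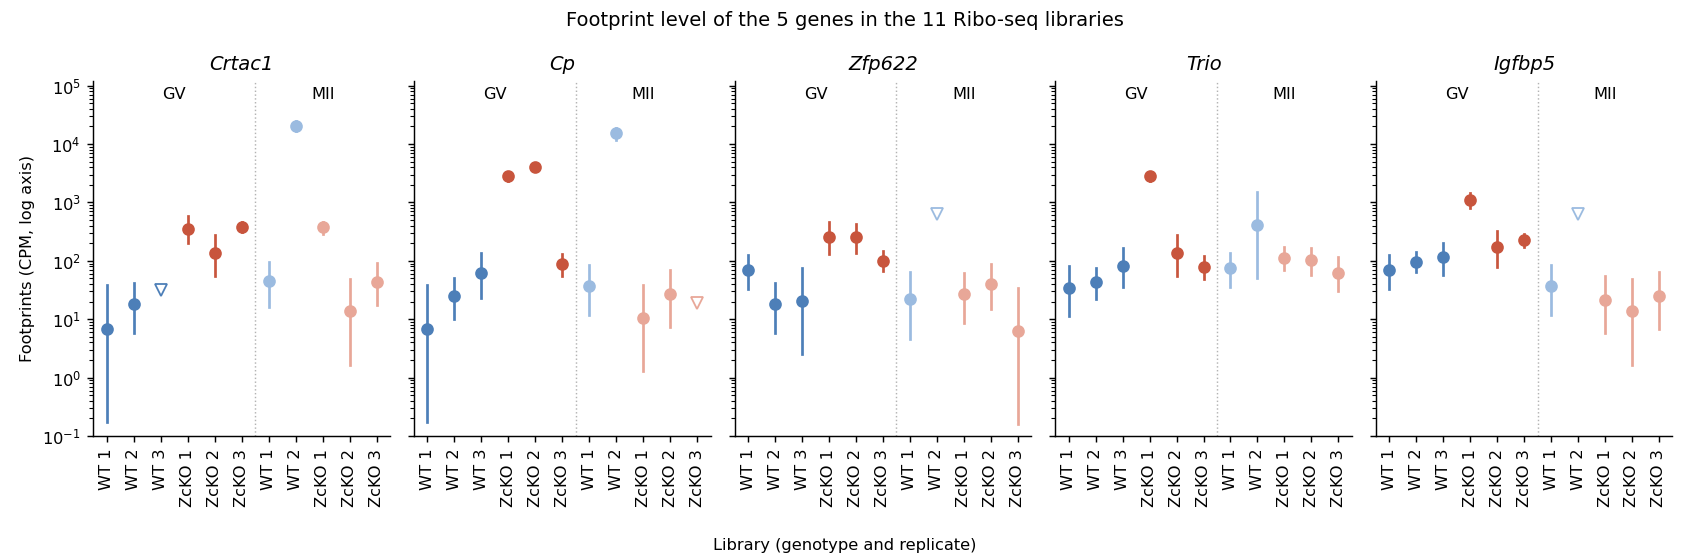
Footprint level (CPM, log axis) of each of the 5 genes in the 11 Ribo-seq libraries, WT in blue and Nat10-ZcKO in red, GV left and MII right of the dotted line. Bars are exact Poisson 95% intervals, and open triangles mark a count of 0 at the level that 3 counts would give. The Nat10-ZcKO GV libraries lie highest within the GV stage for every gene but Trio, whose replicate 3, at 79.4 CPM, is below the highest WT library.

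Crtac1 was the gene whose GV libraries stood farthest apart. It had 1, 5 and 0 footprints in WT GV replicates 1 to 3 (6.87, 17.9 and 0 CPM) and 15, 7 and 105 in the Nat10-ZcKO libraries in the same order (354, 135 and 379 CPM). The lowest Nat10-ZcKO library was 7.57 times the highest WT library, and Crtac1 was the only one of the 5 genes whose Poisson intervals did not overlap between the genotypes. Its mean level was 8.26 ± 9.03 CPM (SD, n = 3) in WT and 289 ± 134 CPM (SD, n = 3) in Nat10-ZcKO. Against the 3 WT libraries summed, the ratio was 30.8, 11.8 and 32.9 in the 3 Nat10-ZcKO libraries, so that the deepest of them, replicate 3, gave a ratio as large as the shallow ones (95% interval 14.6 to 91.7).

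Cp had the largest ratios to WT, in a pair of libraries only. WT GV libraries held 1, 7 and 6 footprints (6.87, 25.0 and 62.4 CPM). Nat10-ZcKO replicates 1 and 2 held 120 and 207 (2833 and 4003 CPM), while replicate 3, the deepest, held 24 (86.6 CPM). All 3 lay above WT, but replicate 3 exceeded the highest WT library by a factor of 1.39, and the Poisson intervals of those 2 libraries overlapped. The ratio to summed WT was 105 in replicate 1, 149 in replicate 2 and 3.22 (1.60 to 6.74) in replicate 3, and the level in the highest Nat10-ZcKO library was 46.2 times that in the lowest.

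Zfp622 differed by less and more evenly. Its footprints numbered 10, 5 and 2 in WT GV (68.7, 17.9 and 20.8 CPM) and 11, 13 and 28 in Nat10-ZcKO GV (259.7, 251 and 101 CPM). The groups did not overlap in level, although replicate 1 of each genotype had nearly the same count, in libraries of different depth. Ratios to summed WT were 7.96, 7.71 and 3.10 (1.64 to 6.03) in replicates 1 to 3. The highest and lowest Nat10-ZcKO libraries differed by a factor of 2.57, the narrowest spread of the 5 genes.

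Trio stood far above WT in 1 library. WT GV held 5, 12 and 8 footprints (34.4, 42.9 and 83.2 CPM) and Nat10-ZcKO GV held 118, 7 and 22 (2786, 135 and 79.4 CPM). Replicate 1 stood at 58.1 times summed WT, replicate 2 at a ratio of 2.82, and replicate 3 at 1.65 (0.889 to 3.06). Its genotype means, 53.5 ± 26.1 CPM in WT and 1000.1 ± 1547 CPM in Nat10-ZcKO (SD, n = 3 each), differ by less than the SD of the latter. Just outside the rule, at a ratio of 0.954 between the lowest Nat10-ZcKO and the highest WT library, Trio contrasts with Cp, just inside it at 1.39.

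Igfbp5 was the gene of the 5 with the most footprints in WT GV oocytes. Its libraries held 10, 27 and 11 footprints in WT GV (68.7, 96.6 and 114 CPM) and 46, 9 and 63 in Nat10-ZcKO GV (1086, 174 and 227 CPM). The groups did not overlap, with the lowest Nat10-ZcKO library 1.52 times the highest WT library. Replicate 1 again stood apart, at a ratio of 11.8 to summed WT, whereas replicate 2 gave 1.89 (0.815 to 3.89) and replicate 3 gave 2.47 (1.67 to 3.67).

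**Figure D2:**
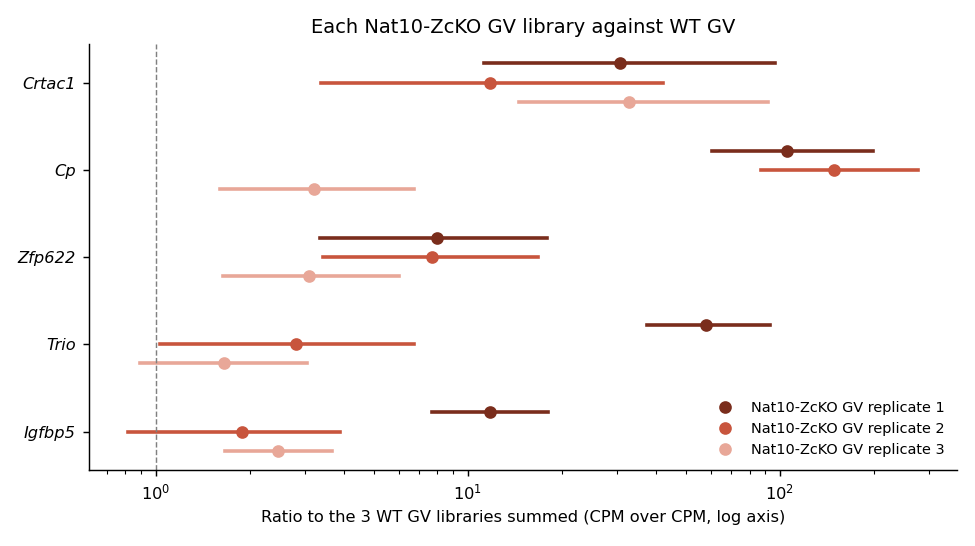
Ratio of each Nat10-ZcKO GV library to the 3 WT GV libraries summed (log axis) for the 5 genes, with exact 95% intervals for counting error; the dashed line is a ratio of 1. Crtac1 lies between 11.8 and 32.9 in all 3 libraries, while in replicate 3 the other genes lie between 1.65 and 3.22.

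The 5 genes differed in which library was highest. Crtac1 was highest in Nat10-ZcKO GV replicate 3, Cp in replicate 2, and Zfp622, Trio and Igfbp5 in replicate 1. The interval lay above those of every WT library for all 5 genes in replicate 1. It did so for 3 genes (Crtac1, Cp and Zfp622) in replicate 2 and for Crtac1 alone in replicate 3. No share of all genes was computed for these interval counts, and the genes were chosen on these libraries, so nothing is read from the counts. Over all genes with at least 50 counts in the GV libraries, 91 of 2445 (3.72%) had every Nat10-ZcKO library above every WT library, which is the background of the rule that 4 of the 5 genes met. Replicate 3 alone lay above the WT libraries for those 4 genes and for 22.8% of all genes, which follows from the rule for the 4, so nothing is read from it. The edgeR quasi-likelihood test called 0% of the 1765 genes tested between the GV groups, and before adjustment 70 genes were higher and 23 lower at p under 0.05. DESeq2 called 6 genes, and edgeR called 380 without Nat10-ZcKO GV replicate 3, the library with most oocyte marker footprints.

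The 5 genes did not follow the oocyte marker share in 1 way. Together they took 0.0186% to 0.0281% of footprints in WT GV. Replicates 1 to 3 of Nat10-ZcKO GV gave 0.732%, 0.470% and 0.0873%, where Cp and Trio made up 120 and 118 of the footprints in replicate 1 and Cp 207 in replicate 2. Igfbp5 was lower in replicate 2, at 174 CPM, than in replicate 3, at 227 CPM, with overlapping intervals. Hepatocyte markers, of interest for Cp, took 0.00180% to 0.0135% in Nat10-ZcKO GV, with 7 or 8 of the 10 at 0, and 0.00206% to 0.00644% in WT GV. Chondrocyte markers, of interest for Crtac1, were at 0 to 0.00794%, within or below the WT range of 0.00275% to 0.0125%. In Nat10-ZcKO GV replicates 1 to 3, Crtac1 stood at 354, 135 and 379 CPM, and oocyte markers took 0.0142%, 1.43% and 10.7%. A link between these values was not tested.

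**Figure D3:**
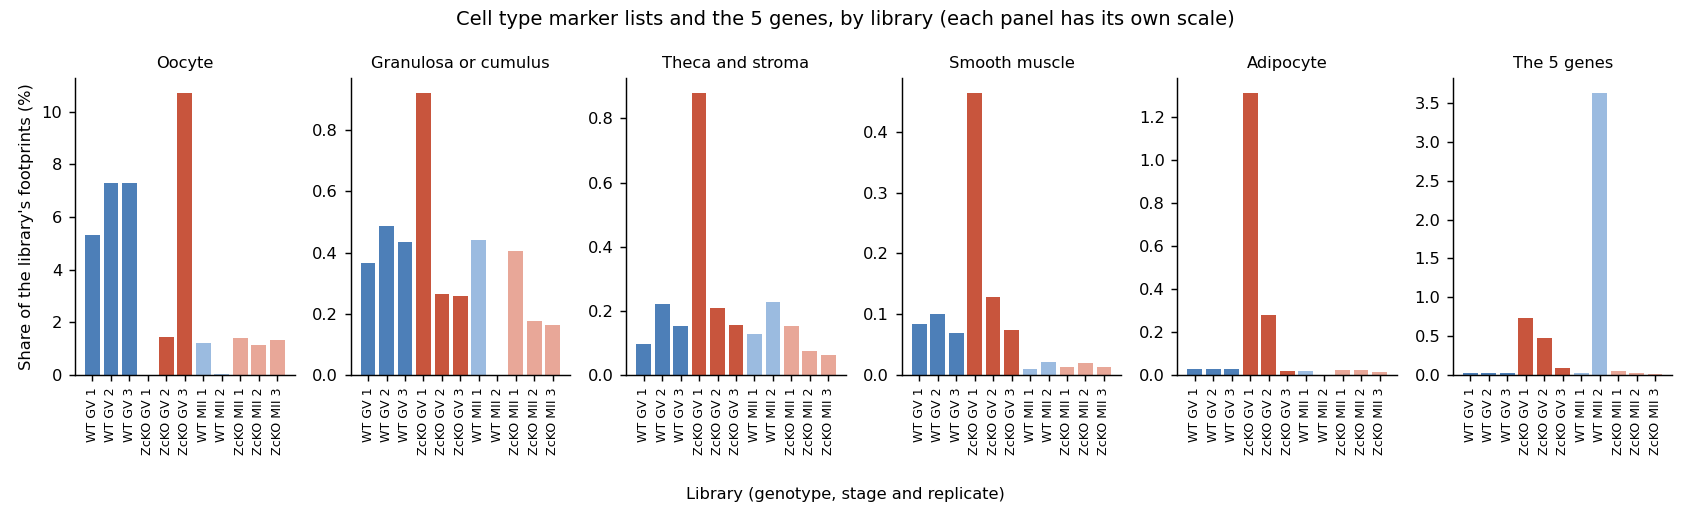
Share of each Ribo-seq library's footprints (%) taken by 5 lists of cell type markers and by the 5 genes together, 1 bar per library, WT in blue and Nat10-ZcKO in red, with a scale of its own in each panel. Nat10-ZcKO GV replicate 1 has almost no oocyte marker footprints and the highest somatic shares, and WT MII replicate 2, with 4815 footprints, has the highest share of the 5 genes, 3.63%.

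In TPM, which sets each count against the gene's coding length, Igfbp5 led in WT GV at 148 ± 38.0 TPM (SD, n = 3), above Zfp622 at 32.2 ± 25.4 with no overlap of the libraries. Cp, at 12.3 ± 11.2, Trio, at 7.26 ± 3.61, and Crtac1, at 5.48 ± 6.01, followed, and each overlapped its neighbour in that order. In Nat10-ZcKO GV the order was Cp (972 ± 856 TPM), Igfbp5 (827 ± 871), Crtac1 (197 ± 85.6), Zfp622 (195 ± 92.9) and Trio (144 ± 223), with a gap between the libraries of Igfbp5 and those of Crtac1 only. In Nat10-ZcKO MII the order was Crtac1 (95.4 ± 132 TPM), Igfbp5 (31.9 ± 8.57), Zfp622 (22.7 ± 16.5), Trio (12.7 ± 3.69) and Cp (5.09 ± 5.62), and all neighbours overlapped.

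The MII libraries, which did not enter the choice of the genes, did not show the GV pattern. None of the 5 genes had every Nat10-ZcKO MII library above every WT MII library, beside 30.9% of all genes with at least 50 counts at MII. Zfp622 and Igfbp5 had fewer counts than that and lie outside this background. For most genes WT MII replicate 2, with footprints from 523 genes, stood at 0, so the share rests largely on WT MII replicate 1. Crtac1 had 6 and 100 footprints in WT MII (44.5 and 20768 CPM) and 70, 2 and 7 in Nat10-ZcKO MII (372, 13.6 and 43.8 CPM). The 100 footprints in WT MII replicate 2 were 2.08% of that shallow library, and without it the sign of the difference turned. In the edgeR quasi-likelihood test its log2 fold change (Nat10-ZcKO minus WT) was -5.08 (SE 2.10, adjusted p = 0.997), and 1.52 (SE 0.78, adjusted p = 0.924) without that library. With WT MII replicate 2 as the only WT library, it was -4.51. In both of these fits the lone WT library is assumed to vary like the Nat10-ZcKO libraries.

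Trio was the other gene with enough counts for the test. It had 10 and 2 footprints in WT MII (74.2 and 415 CPM) and 21, 15 and 10 in Nat10-ZcKO MII (112, 102 and 62.6 CPM), and the groups overlapped. Its log2 fold change was -0.16 (SE 0.96, adjusted p = 0.997 by edgeR), with a sign that turned in 6 of 11 alternatives. The test called 0.191% of the 2097 genes tested at MII, 0 higher and 4 lower, and 0 of the 2 tested among the 5 genes. Before adjustment 15 were higher and 33 lower at p under 0.05, and DESeq2 called 15. Without WT MII replicate 1, which leaves WT MII replicate 2 as the only WT library, the log2 fold change was -4.51 for Crtac1 and -7.49 for Cp.

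Cp was the 1 gene with every Nat10-ZcKO MII library below every WT MII library, beside 1.31% of all genes with at least 50 counts. It had 5 and 73 footprints in WT MII (37.1 and 15161 CPM) and 2, 4 and 0 in Nat10-ZcKO MII (10.6, 27.3 and 0 CPM). The direction is opposite to that at GV, but the counts were too low for the filter of the test, and WT MII replicate 2 again held most of them. Zfp622 had 3 and 0 footprints in WT MII (22.2 and 0 CPM) and 5, 6 and 1 in Nat10-ZcKO MII (26.6, 40.9 and 6.26 CPM). Igfbp5 had 5 and 0 in WT MII (37.1 and 0 CPM) and 4, 2 and 4 in Nat10-ZcKO MII (21.3, 13.6 and 25.0 CPM). For neither gene was a genotype difference detectable at this depth.

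Between the stages, Cp, Zfp622 and Igfbp5 had every Nat10-ZcKO MII library below every Nat10-ZcKO GV library, as did 13.1% of all genes with at least 50 counts in the 6 libraries. Since the genes were chosen for high values in Nat10-ZcKO GV, nothing is read from that count. In WT, Igfbp5 stood at 68.7 to 114 CPM at GV and at 37.1 CPM in WT MII replicate 1, and its intervals overlapped.

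Over the 11 libraries the 5 genes were unevenly alike, and how alike depended on WT MII replicate 2. The highest Pearson's r of log2 CPM among them was 0.74, between Igfbp5 and Zfp622, followed by 0.63 between Igfbp5 and Trio, whereas Crtac1 had an r of -0.14 with Igfbp5 and 0.46 with Cp. Without WT MII replicate 2 all 10 pairs had a positive r, of 0.29 to 0.76, with Cp and Zfp622 highest (0.37 with all 11 libraries) and Crtac1 at 0.29 with both Igfbp5 and Cp. These values share the libraries and their depth and are descriptive. Among 3846 genes with at least 50 counts, those most like Igfbp5 were the collagen genes Col1a1 (0.94), Col1a2 (0.93) and Col6a1 (0.93), of which the first 2 are on the stroma list. Without WT MII replicate 2 the 3 genes were Aars (0.93), Col1a2 (0.92) and Amhr2 (0.92), so that only Col1a2 remained. Col1a1 had 89.4, 229 and 93.6 CPM in WT GV, 1086, 290.1 and 289 CPM in the Nat10-ZcKO libraries of that stage, and at most 44.5 CPM at MII. Like Igfbp5, it was highest in Nat10-ZcKO GV replicate 1, lay above WT in replicates 2 and 3, and was low at MII.

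**Figure D4:**
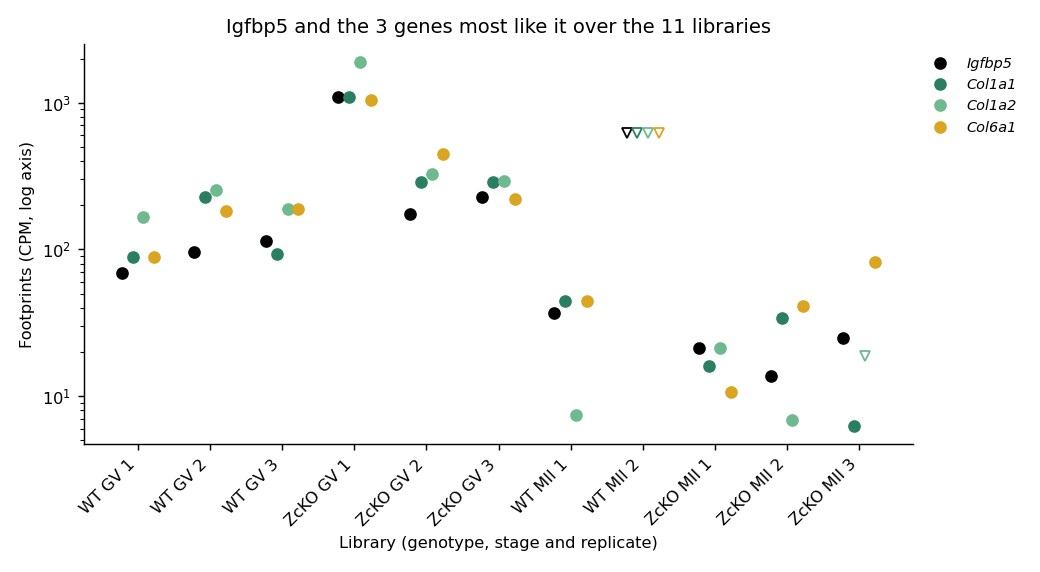
Footprint level (CPM, log axis) of Igfbp5 and of the 3 genes with the highest Pearson's r to it, in the 11 Ribo-seq libraries; open triangles mark a count of 0 at the level that 3 counts would give. All 4 genes are highest in Nat10-ZcKO GV replicate 1, where Igfbp5 and Col1a1 both reach 1086 CPM, and lower at MII than at GV, except that WT MII replicate 2 holds no count of any of them.

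The other genes had unlike company. Trio was most like Trf (0.91), Ubn2 (0.86) and Mark4 (0.85), and Zfp622 most like Rab5c (0.92), Nop58 (0.91) and Ankrd60 (0.89), and both sets stayed the same without WT MII replicate 2. Trf encodes transferrin, the iron carrier of serum, and had 24 footprints in Nat10-ZcKO GV replicate 1 and 2 to 4 in every other GV library. Cp was most like Agap3 (0.91), Arhgef10l (0.91) and Gpd1 (0.86), and Crtac1 most like Gpx1 (0.79), Ehbp1 (0.77) and Dlgap1 (0.72). For these last 2 genes all 3 names changed when WT MII replicate 2 was left out, and Cp was then nearest to Igbp1b, whose footprints in the Nat10-ZcKO GV libraries numbered 138, 292 and 5.

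For the pathway lists reported here, single genes were tested, and no list was tested as a group. Of 19 other genes of copper and iron handling, 3 were tested at GV and 1 at MII, and of 18 other genes of insulin-like growth factor signalling, 3 and 2, with 0 called in either direction by edgeR. Of 11 other factors of large subunit maturation 3 were tested, at MII only, with 0 called. Of 9 other genes of the Nogo receptor pathway 1 was tested, at MII, and was not called. The median log2 fold change at GV was 1.24 for the copper and iron genes tested and 1.37 for the growth factor genes, beside -0.01 over all genes tested, each over 3 genes. Both lists were highest in Nat10-ZcKO GV replicate 1, which was poor in oocyte markers: the copper and iron genes took 0.257% of its footprints and 0.0419% in replicate 3 (WT GV 0.0416% to 0.0701%), and the growth factor genes 0.354% and 0.0480% (WT GV 0.0571% to 0.0738%). Genes with at least 1 GV count were also set against the rule of every Nat10-ZcKO GV library above every WT GV library. It was met by 0 of 16 genes for copper and iron and 1 of 15 for growth factor signalling (Igfbp6). Of 11 genes for large subunit maturation 1 met it (Lsg1), beside 522 of all 13004 genes with such a count. Igfbp6 and Lsg1 each had only 2 footprints in Nat10-ZcKO GV replicate 2.

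The ac4C pull-down from WT GV oocytes, with 1 library for each antibody and hence no test, placed the genes apart. Over 4680 genes with at least 50 counts the median ac4C/IgG ratio of CPM was 1.27. Crtac1 had 7 fragments with the ac4C antibody and 5 with IgG, a ratio of 0.168 (0.0458 to 0.670), the only one of the 5 whose interval lay below 1. Cp had 51 and 9, a ratio of 0.678 (0.331 to 1.57), and Trio 47 and 1, a ratio of 5.63 (0.962 to 227), and both intervals include 1. These intervals hold for totals of fragments on genes. With TMM factors Trio was at 6.27 (1.07 to 253), and with totals that include fragments on no gene it was at 8.74 (1.49 to 352), Cp at 1.05 (0.514 to 2.43) and Crtac1 at 0.260 (0.0711 to 1.04). The scaling thus decides whether the intervals of Trio and Crtac1 include 1. Igfbp5 had 23 fragments with the ac4C antibody and 0 with IgG, which leaves a ratio down to 0.688 within the 95% interval, and Zfp622 had 4 and 0, too few for a ratio. The ac4C library held 970997 fragments on genes and the IgG library 116232, so that the IgG counts set the precision.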

How the data were processed

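Ribosome footprints of 11 oocyte libraries and RNA fragments of 2 pull-down libraries were used as raw counts per gene deposited by the authors, who, per the labels, trimmed with cutadapt, aligned to mm10 with STAR and counted with HTSeq (versions not given in the sources used here). Footprints lay on coding sequence and libraries had no molecular identifiers, so amplified copies count as separate footprints. Groups came from the sample titles. IDs were matched without version to GENCODE M21 (22399 of 22442 matched). CPM used the library total, and TPM the summed coding length. Genotypes were compared at MII with edgeR 4.0.16 (R 4.3.3, filterByExpr, TMM, quasi-likelihood test, Benjamini-Hochberg adjusted p under 0.05 over all genes tested) and with DESeq2 1.42.0 as an alternative. The GV fit served as background only. The code was tested on simulated data.

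The 5 genes and all lists were chosen with earlier results of these data known. Named genes were the 5 genes, Nat10, the 3 genes with the highest Pearson's r to each (log2 CPM, prior count 2), the protein-coding genes between Zfp622 and Trio, and pathway genes called by the test. The 2 genes with most GV counts of each pathway list reported were Aco1 and Fth1, Igf2r and Igfbp7, Efl1 and Pa2g4, and Rtn4 and Rtn4rl1. Of these Efl1, Pa2g4 and Rtn4rl1 were not tested, and the others were not called. The results of 1 further pathway list are not reported here. The study's methods describe biological triplicates as the general rule, but not which animals gave the oocytes of each library. The p-values therefore measure the spread between libraries, part of which may be technical. Alternatives were the normalization, the filter, the replicate block, a fit of all 11 libraries and leaving out each library.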

Additional observations from a re-analysis of the deposited data

How the results depend on the processing

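At MII, where 4 genes were called, the count was 15 with DESeq2, 44 with library size only, 0 with no filter on low counts, 17 with a filter of 10 counts, 19 with all 11 libraries in one fit and 0 to 1451 when 1 library was left out (1451 without WT MII replicate 1, which leaves WT MII replicate 2 as the only WT library, assumed to vary like the others). Of the 5 genes, 0 were called, against 1 (Crtac1, log2 fold change -7.00, adjusted p = 0.00772 by edgeR) with library size only and 0 to 2 when 1 library was left out (Crtac1 and Cp without WT MII replicate 1). Crtac1 had log2 fold changes of -5.05 to 1.52 with 1 library left out, reversed without WT MII replicate 2. Trio was reversed at 0.53 with no filter, 0.41 with the filter of 10 counts, 0.63 in the fit of all 11 libraries, and spanned -0.28 to 0.51 with 1 library left out. The cause of these changes was not tested. At GV, DESeq2 called 6 genes against 0, and leaving out 1 library gave 0 to 380 (380 without Nat10-ZcKO GV replicate 3).

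The GV rule was met by 4 of the 5 genes, by 5 with TMM-scaled CPM or without the 10 genes with most counts, and by 4 with TPM. It was met by 4 to 5 when 1 library was left out, and by 1 when Poisson intervals had to stay apart. No share of all genes was computed for these alternatives. Of the 15 genes most like the 5, 7 remained without WT MII replicate 2. With totals that include fragments on no gene, the ac4C/IgG ratios were 0.260 for Crtac1, 1.05 for Cp and 8.74 for Trio. The interval of Crtac1 then included 1, and that of Trio lay above 1, as it did with TMM factors (6.27). With the replicate number as a block, edgeR called 0 genes at MII and 0 at GV. Deviations of same-numbered libraries from their group means correlated at -0.001 to 0.0996, and those of other-numbered libraries at -0.0996 to 0.0552. These values do not settle whether the numbers pair the libraries, since the deviations of the 2 WT MII libraries mirror each other. The comparison with Nat10-ZcKO GV replicate 3 alone was added after the data were seen. Counts of 0 to 6 limit Zfp622 and Igfbp5 at MII, and WT MII replicate 2 limits every MII comparison.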
